A study of Mus musculus with 8 samples.

Results

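The Slc25 genes encode the mitochondrial carrier family, the transport proteins that move metabolites, nucleotides and cofactors across the inner membrane of the mitochondrion. The members described here are all probe sets annotated to exactly 1 gene symbol that consists of Slc25a and a number, which gave 65 of the 22626 probe sets tested and 33 of the 12393 genes with a single-symbol probe set. Expression was measured in total RNA from whole liver on Affymetrix mouse arrays, with 4 arrays from wild-type mice (WT) and 4 from mice that lack SIRT7 (SIRT7 KO), a nuclear deacetylase of the sirtuin family. The labels number 4 liver samples per genotype, 1 for each array, and each was taken as 1 mouse, which they do not state. They give neither strain, age, sex, diet, litter nor batch, so that every p-value refers to the spread among these 8 samples and nothing wider. The SIRT7 KO mice came from an established mutant line, and the sources used here name no Cre driver or transgene for it. Because whole liver was used, fewer cells of a type and less RNA per cell cannot be told apart.

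Mitochondrial carriers share a fold of repeated pairs of membrane helices, and most of them exchange a substrate in the matrix for another in the intermembrane space. In liver they connect the cytosol with the matrix for ATP supply, fatty acid oxidation, urea synthesis, gluconeogenesis, heme synthesis and the delivery of coenzymes. A few members have left this scheme, among them Slc25a17 in the peroxisome membrane and Slc25a46 in the outer mitochondrial membrane.

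A probe set is a group of oligonucleotide probes against 1 transcript or several similar ones. Its value is given on the log2 scale, on which a difference of 1 is a doubling. Sirt7 lay between 8.57 and 8.98 on the WT arrays and between 4.40 and 4.90 on the SIRT7 KO arrays, in accordance with the labels. The 7 hepatocyte markers measured, of 8 listed, had mean levels from 14.16 to 14.26 in WT and from 14.09 to 14.12 in SIRT7 KO. These levels did not overlap, 0 of the 7 had a positive difference (median -0.02), and 0 were called. At an unadjusted p under 0.05 was 1 of them, Hnf4a, with means of 12.34 in WT and 12.07 in SIRT7 KO (-0.27 ± 0.11, adjusted p = 0.305). Several arrays stood apart from their group. On the first principal component (28% of the variance) WT array 4 had a score of -34.5 and the other WT arrays scores from -11.2 to -2.10. The SIRT7 KO arrays had scores from 4.89 to 23.9 on it. SIRT7 KO arrays 3 and 4 and WT array 4 had scores from 10.7 to 24.4 on the second principal component (22.6% of the variance), and the other 5 arrays had scores from -19.0 to -1.52. The difference between the 3' and 5' probe sets of Gapdh ran from 0.16 to 0.29 in WT and from -0.016 to 0.16 in SIRT7 KO. Of 45 spike-in control probe sets 42 were lower in SIRT7 KO. The mean of the spike-in probe sets on an array ran from 8.63 to 8.76 in WT and from 8.39 to 8.61 in SIRT7 KO. For the Gapdh difference and for the spike-in mean, a two-sided exact permutation test gave p = 0.0286 each. This is the smallest p that 4 arrays against 4 allow. The part of these technical differences in the results on the carriers was not tested.

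Among the 33 carrier genes, each represented by the probe set of highest mean level, Slc25a30 rose and Slc25a23 fell in SIRT7 KO liver, and 31 did not pass the test. A probe set was called at a limma adjusted p below 0.15, which follows the methods of the study. Slc25a30, a carrier related to the uncoupling proteins, was 3.39-fold higher, and Slc25a23, a calcium-regulated carrier of ATP-Mg and phosphate, was 1.23-fold lower. Slc25a5, the ADP/ATP carrier ANT2, had 1 further probe set that passed. The share of carrier genes called was 6.06% (2 of 33), and over all genes it was 4.65%, with 2.17% higher and 2.48% lower. An unadjusted p under 0.05, a looser mark used below beside counts of 0, was reached by 7 of the 33 carrier genes and by 15.6% of all genes. By probe sets, 6 of 65 carriers were called (9.23%), 5 of them higher and 1 lower, beside 4.31% of all probe sets, of which 1.92% were higher and 2.39% lower. Since 4 of these 6 probe sets belong to Slc25a30, the larger share by probe sets rests on a single gene.

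The promoters of the 3 genes with a called probe set are shown because they are the members on which the results turn. Each sequence holds the 250 bases before a transcription start in RefSeq (GRCm38.p6), written 5' to 3' on the strand of the gene, and the capitals mark matches to the GC box (GGGCGG) and the CCAAT box on either strand. Where a gene has several promoter entries, as Slc25a23 does, the first is shown, and positions counted from another start would differ.
Slc25a30 (chr14:75787038-75787287, minus strand): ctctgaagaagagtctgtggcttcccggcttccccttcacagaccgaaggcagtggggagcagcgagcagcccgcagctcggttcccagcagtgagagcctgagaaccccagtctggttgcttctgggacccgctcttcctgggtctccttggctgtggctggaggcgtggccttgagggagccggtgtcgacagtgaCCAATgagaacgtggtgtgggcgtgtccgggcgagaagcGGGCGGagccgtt
Slc25a5 (chrX:36795347-36795596, plus strand): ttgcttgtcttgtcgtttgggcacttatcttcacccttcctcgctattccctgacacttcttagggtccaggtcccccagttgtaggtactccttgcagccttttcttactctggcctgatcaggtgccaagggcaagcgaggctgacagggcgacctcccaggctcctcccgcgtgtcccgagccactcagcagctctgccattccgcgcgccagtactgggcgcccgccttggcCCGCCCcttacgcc
Slc25a23 (chr17:57059864-57060113, minus strand): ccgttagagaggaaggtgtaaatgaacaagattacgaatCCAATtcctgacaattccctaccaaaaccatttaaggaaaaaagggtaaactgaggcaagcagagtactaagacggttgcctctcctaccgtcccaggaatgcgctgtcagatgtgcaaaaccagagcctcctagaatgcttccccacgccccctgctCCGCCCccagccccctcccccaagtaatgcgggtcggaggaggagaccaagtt
Counted from the transcription start, the GC box of Slc25a30 began at base -13 and its CCAAT box at base -52, and the GC box of Slc25a5 began at base -14. In Slc25a23 the GC box began at base -53 and the CCAAT box at base -211. A match to these letters describes the sequence and is not a measured binding site.

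For 26 of the 33 genes the RefSeq table held 35 promoter entries. The GC box was found in 28 of these 35 (80%), beside 51.3% of the 12567 promoters of genes on the array and 32.7% of all 32851 promoters. The CCAAT box was found in 18 (51.4%), beside 34.7% and 33.8%. The palindromic E-box CACGTG was found in 6 promoters of Slc25a13, Slc25a14, Slc25a15, Slc25a33 and Slc25a36 (17.1%, beside 7.68% and 6.02%). The cyclic AMP response element TGACGTCA was found in Slc25a25 and Slc25a36 (5.71%, beside 2.12% and 1.55%), and the nuclear receptor half-site AGGTCA in Slc25a39, Slc25a45 and Slc25a47 (8.57%, beside 12% and 14%). The interferon-type letters GAAANNGAA were found in Slc25a15 and Slc25a22 (5.71%, beside 6.24% and 7.13%). The letters TATAAA and GTAAACA were in none of the 35 windows, beside 8.81% and 2.36% of the promoters of genes on the array. Of the 8 motifs searched, the 3 promoters shown held the GC box, the CCAAT box or both, and these counts are a description with no test.

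Slc25a30, also named kidney mitochondrial carrier protein, had the largest difference of the family. Its probe set with the highest mean (1420836_at) read 8.74, 8.21, 7.96 and 9.40 on WT arrays 1 to 4 and 10.12, 10.31, 10.87 and 10.07 on SIRT7 KO arrays 1 to 4. All 4 SIRT7 KO values lay above all 4 WT values, with WT array 4 the nearest to them and SIRT7 KO array 3 the farthest. The difference was 1.76 ± 0.30 (SE, n = 4 and 4; adjusted p = 0.0458). The other probe sets of the gene were read in the same way. The probe set 1420835_at read 7.58, 7.28, 7.18 and 8.15 in WT and 8.79, 8.81, 9.52 and 8.74 in SIRT7 KO (difference 1.42 ± 0.23, adjusted p = 0.0432). The probe set 1450018_s_at read 8.55, 7.98, 7.77 and 9.16 in WT and 9.56, 9.83, 10.52 and 9.93 in SIRT7 KO (1.60 ± 0.30, adjusted p = 0.0563). On these 3 probe sets WT array 4 was the highest of the WT and SIRT7 KO array 3 the highest of the SIRT7 KO arrays.

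The probe set 1425948_a_at of Slc25a30 read 5.15, 5.33, 4.92 and 5.75 in WT and 6.26, 5.83, 6.48 and 5.83 in SIRT7 KO (0.81 ± 0.20, adjusted p = 0.105). The groups again did not overlap, with WT array 4 (5.75) and SIRT7 KO array 2 (5.83) the nearest. The probe set 1425949_at lay between 3.75 and 4.03 on all 8 arrays, below the lower quartile of all probe set means (4.56), and did not pass (0.02 ± 0.08, adjusted p = 0.922). With the 5 probe sets averaged, Slc25a30 rose by 1.12 ± 0.21 (adjusted p = 0.0477). The first 3 probe sets passed in each of the 8 fits that left out 1 array, with adjusted p at most 0.144. The probe set 1425948_a_at passed only in the fits without SIRT7 KO array 2 or WT array 4, and its adjusted p ran up to 0.24. For 1420836_at the difference over the fits without 1 array ran from 1.56 to 2.03.

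**Figure D1:**
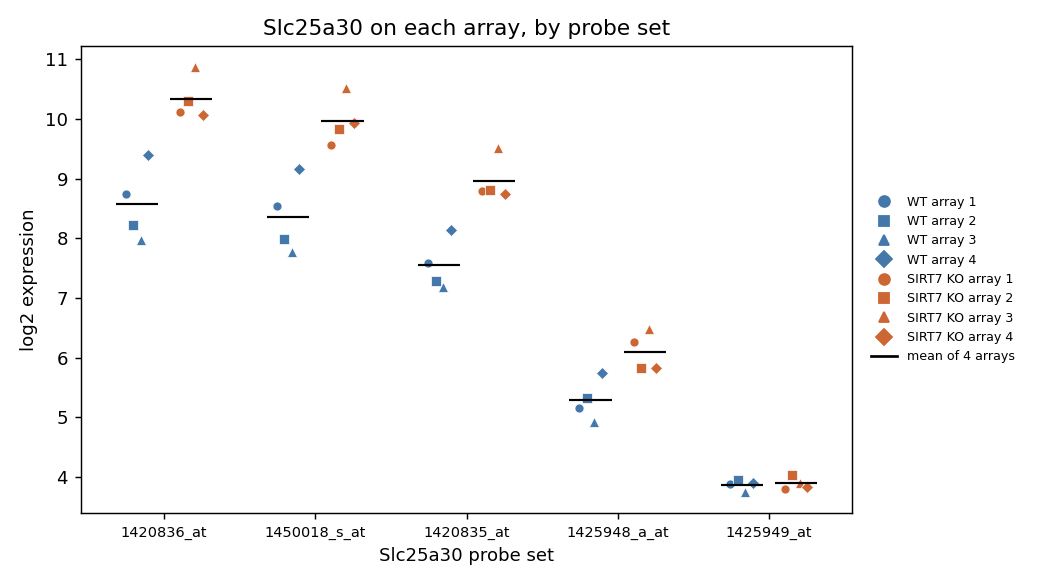
Log2 expression of the 5 probe sets of Slc25a30 (horizontal axis) on each of the 4 WT arrays (blue) and 4 SIRT7 KO arrays (orange), with the marker shape giving the array number and the black bars the group means. In 4 of the 5 probe sets every SIRT7 KO array lies above every WT array, whereas 1425949_at stays between 3.75 and 4.03 in both groups.

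Its relative Slc25a14, the other member here that resembles the uncoupling proteins, had a negative difference that did not pass. It read 7.01, 7.02, 7.27 and 7.20 in WT and 6.93, 7.04, 6.88 and 6.92 in SIRT7 KO (-0.18 ± 0.08, adjusted p = 0.328). SIRT7 KO array 2 (7.04) lay among the WT arrays, so that the groups overlapped.

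The ADP/ATP carriers exchange cytosolic ADP for the ATP made in the matrix, and 12 probe sets on the array report on them, 8 for Slc25a5 and 4 for Slc25a4. All 12 had a positive difference, and 1 of them passed the test. That probe set of Slc25a5, 1438360_x_at, read 9.45, 9.23, 9.27 and 9.43 in WT and 9.69, 9.91, 9.58 and 10.01 in SIRT7 KO (0.45 ± 0.11, adjusted p = 0.0936). It lost its call in 5 of 8 fits without 1 array, namely those without SIRT7 KO array 2 or 4 or WT array 1, 2 or 3, where the adjusted p was at most 0.208. The probe set 1438922_x_at, with 9.35, 9.19, 9.13 and 9.42 in WT and 9.52, 9.81, 9.44 and 9.90 in SIRT7 KO, did not pass (0.39 ± 0.12, adjusted p = 0.161), although its groups did not overlap either.

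The 6 further probe sets of Slc25a5 had differences from 0.12 to 0.20 and adjusted p from 0.193 to 0.536. Among them 1438546_x_at, with 11.59, 11.47, 11.53 and 11.56 in WT and 11.84, 11.75, 11.65 and 11.72 in SIRT7 KO, was without overlap (0.20 ± 0.07). The same held for 1423772_x_at, with 13.25, 13.18, 13.28 and 13.24 in WT and 13.49, 13.45, 13.31 and 13.32 in SIRT7 KO (0.16 ± 0.07, adjusted p = 0.314). In the remaining 4 probe sets 1 or more SIRT7 KO arrays reached into the WT range. The probe set 1436874_x_at, which has the highest mean and stands for the gene in the counts, read 13.59, 13.51, 13.67 and 13.57 in WT and 13.86, 13.78, 13.63 and 13.65 in SIRT7 KO (0.14 ± 0.07, adjusted p = 0.416). The probe set 1438545_at read 10.77, 10.61, 10.62 and 10.77 in WT and 10.94, 10.80, 10.76 and 11.00 in SIRT7 KO (0.18 ± 0.08). On both, SIRT7 KO array 3 lay below the highest WT array.

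The last 2 probe sets of Slc25a5 were likewise close between the groups. The probe set 1434801_x_at read 13.16, 13.04, 13.20 and 13.13 in WT and 13.45, 13.37, 13.20 and 13.18 in SIRT7 KO (0.17 ± 0.08). The probe set 1430542_a_at read 13.55, 13.46, 13.64 and 13.51 in WT and 13.80, 13.73, 13.56 and 13.56 in SIRT7 KO (0.12 ± 0.08). SIRT7 KO arrays 1 and 2 were above all WT arrays on both. With the 8 probe sets averaged, in a fit over the probe set means of all genes, Slc25a5 was higher by 0.23 ± 0.06 and passed (adjusted p = 0.133). The 8 probe sets report on 1 gene and are not independent of each other, and 6 of them carry the _x_at suffix, by which Affymetrix marks probes that may bind other transcripts.

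Slc25a4, the ADP/ATP carrier ANT1 of heart and muscle, did not pass by any of its 4 probe sets. The probe set 1424562_a_at read 7.68, 7.76, 7.75 and 7.20 in WT and 7.91, 7.62, 7.85 and 7.68 in SIRT7 KO (0.17 ± 0.13, adjusted p = 0.614). WT array 4 lay below all other arrays, and the 3 others of its group lay within the SIRT7 KO range. The differences of the other 3 probe sets ran from 0.09 to 0.22. The 5 skeletal muscle markers, set beside this gene because muscle expresses it strongly, were called in 0 of 5 (0 at an unadjusted p under 0.05) and had mean levels from 4.72 to 4.80 in WT and from 4.73 to 4.92 in SIRT7 KO.

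**Figure D2:**
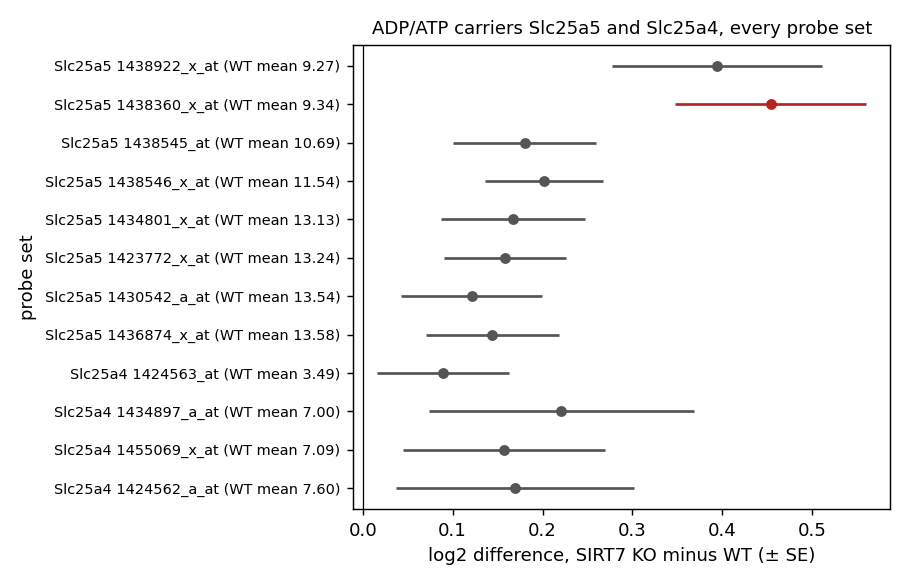
Log2 difference (SIRT7 KO minus WT, horizontal axis) with its standard error for the 8 probe sets of Slc25a5 and the 4 of Slc25a4, each labelled with its WT mean. All 12 points lie to the right of 0, and 1438360_x_at (red, 0.45) is the only one of them at an adjusted p under 0.15.

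The calcium-regulated carriers of ATP-Mg and phosphate adjust the adenine nucleotide pool of the matrix, and of the 3 measured 1 fell. Slc25a23 read 8.91, 8.91, 8.66 and 8.82 in WT and 8.41, 8.54, 8.58 and 8.58 in SIRT7 KO. All SIRT7 KO arrays lay below all WT arrays, with WT array 3 (8.66) closest to them. It fell by 0.30 ± 0.08 (adjusted p = 0.128). Of the 8 fits without 1 array, only that without WT array 3 kept this call (adjusted p = 0.0924), the other 7 gave adjusted p up to 0.278, and the difference over all 8 ran from -0.35 to -0.26. Slc25a23 also lost its call under the stricter threshold, a further quantile normalization and the replicate block.

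Slc25a25, a close relative of Slc25a23, read 9.38, 9.80, 8.34 and 8.78 in WT and 9.48, 9.77, 9.50 and 9.61 in SIRT7 KO (0.51 ± 0.27, adjusted p = 0.427). Its WT arrays, from 8.34 to 9.80, enclosed all 4 SIRT7 KO arrays. Slc25a24 lay from 3.66 to 3.87 on all arrays, below the lower quartile, and its difference was 0.02. The phosphate carrier Slc25a3, which supplies phosphate for ATP synthesis, had means of 12.51 in WT and 12.57 in SIRT7 KO (0.06 ± 0.06, adjusted p = 0.720).

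Carriers of carboxylates and of carnitine link the matrix with gluconeogenesis and fatty acid oxidation, and 0 of 3 genes passed (1 at an unadjusted p under 0.05). The dicarboxylate carrier Slc25a10 read 9.34, 9.37, 9.21 and 9.07 in WT and 9.95, 9.88, 9.28 and 9.57 in SIRT7 KO (0.42 ± 0.15, adjusted p = 0.221). Only SIRT7 KO array 3 lay within the WT range. Its second probe set, 1416955_at, read 8.11, 8.03, 7.88 and 7.84 in WT and 8.79, 8.54, 7.87 and 8.23 in SIRT7 KO (0.39 ± 0.18), and SIRT7 KO array 3 again lay within the WT range. The carnitine/acylcarnitine carrier Slc25a20, which brings long-chain acylcarnitines into the matrix, read 11.67, 11.77, 11.57 and 11.69 in WT and 12.21, 12.10, 11.52 and 11.87 in SIRT7 KO (0.25 ± 0.14, adjusted p = 0.453). SIRT7 KO array 3 was below all WT arrays and the other SIRT7 KO arrays above them. Slc25a11, the oxoglutarate carrier of the malate-aspartate shuttle, had means of 9.70 and 9.79 (0.09 ± 0.10, adjusted p = 0.741).

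The liver-specific carrier Slc25a47 read 13.07, 12.91, 13.15 and 13.16 in WT and 13.83, 13.55, 13.17 and 13.16 in SIRT7 KO (0.36 ± 0.15, adjusted p = 0.302). SIRT7 KO arrays 1 and 2 lay clear of the WT arrays, and SIRT7 KO arrays 3 and 4 lay just above the highest WT array. Without SIRT7 KO array 3, Slc25a10 passed with 0.55 (adjusted p = 0.108) and Slc25a20 with 0.39 (adjusted p = 0.147). Without SIRT7 KO arrays 3 and 4 and WT array 4 together, a setting chosen after seeing the data, the differences were 0.60 for Slc25a10 (adjusted p = 0.0623), 0.49 for Slc25a20 (adjusted p = 0.117) and 0.65 for Slc25a47 (adjusted p = 0.107). Without SIRT7 KO array 1 the differences were smaller, at 0.15 for Slc25a20 (adjusted p = 0.665) and 0.22 for Slc25a47 (adjusted p = 0.446). The values of these genes therefore depended on which SIRT7 KO arrays were included.

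**Figure D3:**
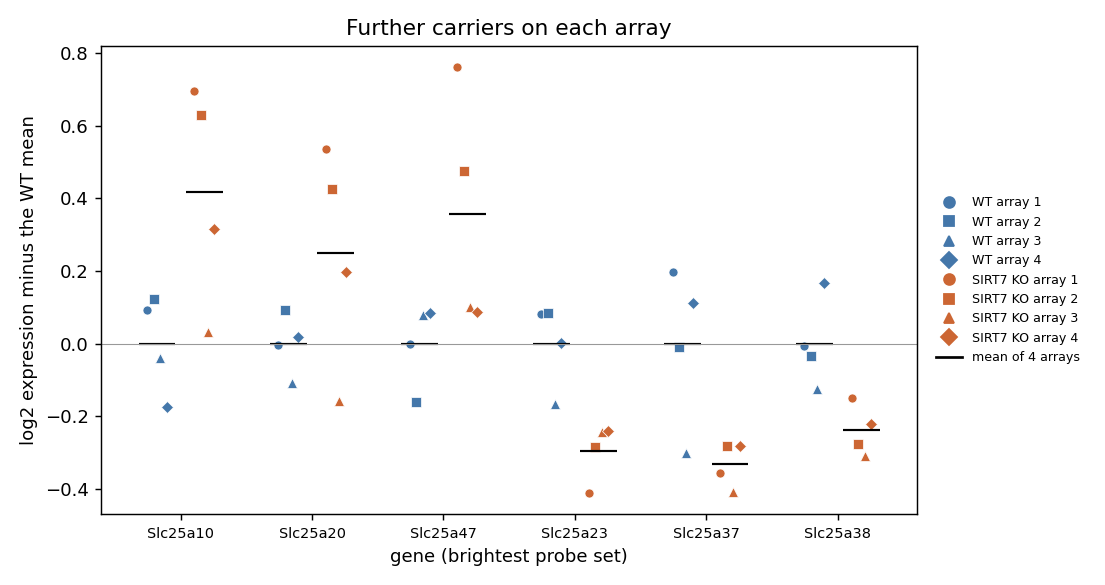
Log2 expression minus the WT mean of the gene for Slc25a10, Slc25a20, Slc25a47, Slc25a23, Slc25a37 and Slc25a38 on each array, with the marker shape giving the array number and the bars the group means. SIRT7 KO array 3 (orange triangle) lies near the WT arrays for the first 3 genes, whereas all 4 SIRT7 KO arrays lie below the WT mean for the last 3.

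Of the 2 iron carriers of the mitoferrin type, which feed iron to heme and iron-sulfur cluster synthesis, 0 passed (1 at an unadjusted p under 0.05). Slc25a37 read 8.49, 8.29, 7.99 and 8.41 in WT and 7.94, 8.01, 7.88 and 8.01 in SIRT7 KO (-0.33 ± 0.11, adjusted p = 0.185). WT array 3 (7.99) lay among the SIRT7 KO arrays, and in the fit without it the gene passed (-0.43, adjusted p = 0.0697). Slc25a28, which does the same outside the erythroid lineage, had means of 8.30 in WT and 8.18 in SIRT7 KO (-0.12 ± 0.08, adjusted p = 0.547).

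Slc25a38, the glycine carrier that supplies the first step of heme synthesis, read 7.98, 7.96, 7.87 and 8.16 in WT and 7.84, 7.72, 7.68 and 7.77 in SIRT7 KO. All SIRT7 KO arrays lay below all WT arrays, with WT array 3 and SIRT7 KO array 1 the nearest, and the difference did not pass (-0.24 ± 0.08, adjusted p = 0.196). When only probe sets above the median level (6.35) were tested, Slc25a37 and Slc25a38 passed as well. Of 6 erythroid markers measured out of 8 listed, 0 were called in the same fit and 1 was below an unadjusted p of 0.05. Alas2, the erythroid enzyme of heme synthesis, was that marker, with means of 9.82 in WT and 9.39 in SIRT7 KO (-0.43 ± 0.16, adjusted p = 0.257). However, 4 of the 6 erythroid markers had a positive difference, and the median over the 6 was 0.03. The mean level of the erythroid markers ran from 5.31 to 5.59 in WT and from 5.30 to 5.58 in SIRT7 KO, 2 of the 6 lay below the lower quartile in both groups, and the part of erythroid cells in these values was not tested.

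The other amino acid carriers had differences from -0.13 to 0.23 by the probe set with the highest mean, and 0 of 7 genes of the group, Slc25a38 included, passed (1, Slc25a38, at an unadjusted p under 0.05). Citrin (Slc25a13), the aspartate/glutamate carrier of the urea cycle and the malate-aspartate shuttle, had means of 11.95 and 11.82 (-0.13 ± 0.11, adjusted p = 0.672). Its SIRT7 KO arrays ran from 11.60 to 12.10 and enclosed all WT arrays. The ornithine/citrulline carrier Slc25a15 differed by -0.02 ± 0.08 (adjusted p = 0.939), the glutamate carrier Slc25a22 by 0.23 ± 0.15 (adjusted p = 0.527) and the basic amino acid carrier Slc25a29 by 0.19 ± 0.11 (adjusted p = 0.482). The 5 probe sets of Slc25a29 differed in sign, from -0.06 to 0.19.

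Carriers of nucleotides and coenzymes numbered 6, and 0 passed (0 at an unadjusted p under 0.05). Slc25a26, which imports S-adenosylmethionine for methylation in the matrix, read 7.03, 7.10, 7.13 and 7.19 in WT and 7.46, 7.27, 7.37 and 7.08 in SIRT7 KO (0.18 ± 0.09, adjusted p = 0.388). SIRT7 KO array 4 lay among the WT arrays, and the second probe set of the gene had a difference of opposite sign (-0.05 ± 0.08). The coenzyme A carrier Slc25a42 had means of 7.32 and 7.59 (0.27 ± 0.14, adjusted p = 0.412), and Slc25a51, which carries NAD+ into the matrix, had 10.41 and 10.19 (-0.22 ± 0.14, adjusted p = 0.541). All 3 probe sets of Slc25a51 were negative, from -0.29 to -0.18. The pyrimidine nucleotide carrier Slc25a33 differed by 0.08 ± 0.14 (adjusted p = 0.844).

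The glutathione carrier Slc25a39 had 3 probe sets with differences from 0.09 to 0.14, none of which passed. Slc25a46 of the outer membrane, which acts on mitochondrial shape, had 2, both negative (-0.08 and -0.09). Of the 5 genes whose substrate is not named here, Slc25a47 among them, all had positive differences by the probe set with the highest mean and 0 passed (1, Slc25a47, at an unadjusted p under 0.05). Slc25a45 had means of 9.14 and 9.36 (0.22 ± 0.12, adjusted p = 0.450). Slc25a48 differed by 0.00 ± 0.15 by one probe set, and by the other, 1446966_at, by -0.28 ± 0.10 (adjusted p = 0.213). The latter read 5.12, 4.68, 4.96 and 4.77 in WT and 4.59, 4.66, 4.60 and 4.55 in SIRT7 KO, without overlap but near the lower quartile. Slc25a53 and Slc25a35 differed by 0.11 and 0.06, both at levels below the lower quartile.

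**Figure D4:**
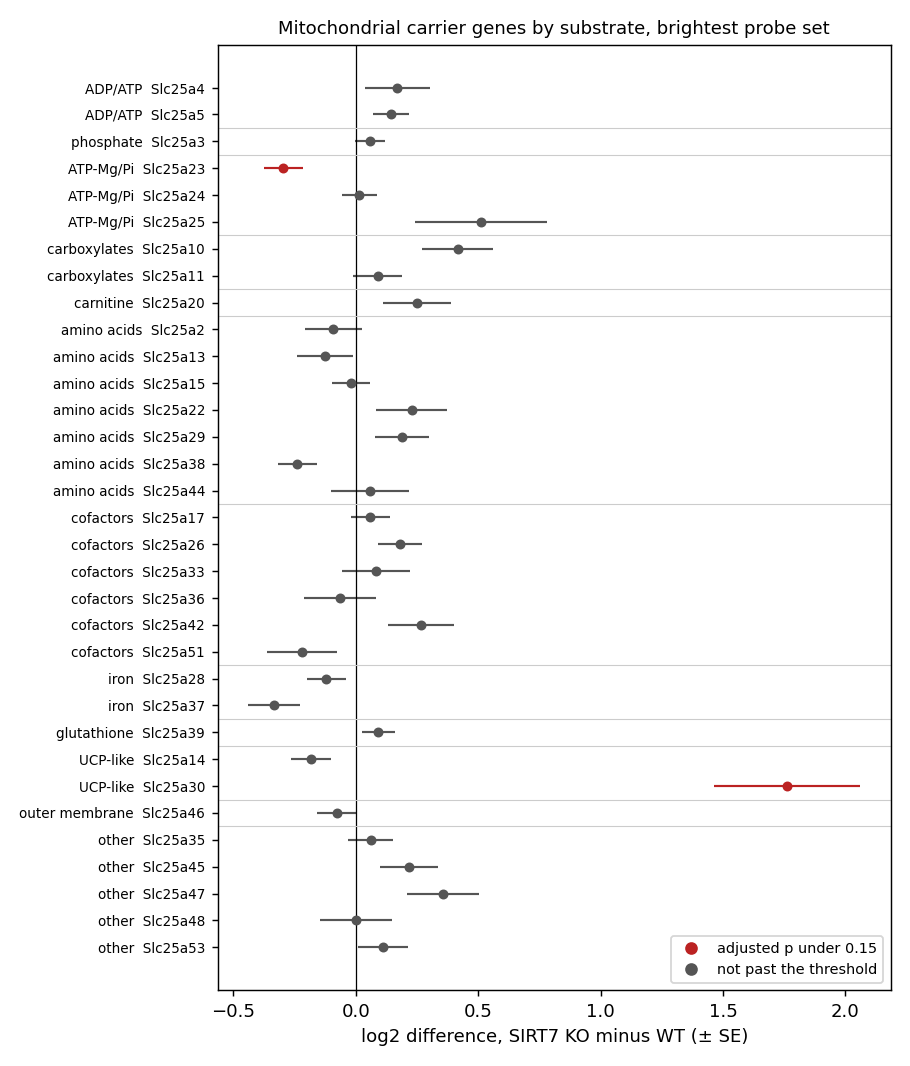
Log2 difference (SIRT7 KO minus WT, horizontal axis) with its standard error for each of the 33 carrier genes by the probe set with the highest mean, grouped by the substrate carried. Slc25a30 (1.76) and Slc25a23 (-0.30), in red, are at an adjusted p under 0.15, and the 31 others, in grey, lie between -0.33 and 0.51.

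Across the 33 genes, 22 had a positive and 11 a negative difference. The positive share was 66.7%, beside 49.3% of all genes, and the median difference was 0.062, beside -0.0031 for all genes. Centring each array on its median gave a median of 0.057 for the carriers, and a further quantile normalization gave 0.082. Without WT array 3 the median was 0.114. The 31 genes without a call ran from -0.33 to 0.51, with adjusted p of 0.185 or more, and 25 of them differed by less than 0.25 in either direction. Groups did not overlap for 2 genes that were higher (Slc25a30 and Slc25a47) and 2 that were lower (Slc25a23 and Slc25a38), beside 4.10% and 5.70% of all genes. By probe sets, 9 of 65 were higher and 3 lower without overlap, beside 3.79% and 5.56% of all probe sets, and 8 of these 9 belong to Slc25a30 and Slc25a5. The carriers were represented by more than 1 probe set for 15 genes, and in 11 of these all probe sets had 1 sign, beside 57.9% of the 4956 such genes on the array. The probe sets differed in sign for Slc25a26, Slc25a29, Slc25a36 and Slc25a48.

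The arrays of a genotype also varied among themselves. The median SD within genotype was 0.17 for the carrier genes and 0.13 for all genes. Slc25a30 had the largest of the family (0.52, at percentile 97.3 of all genes), followed by Slc25a25 (0.47, percentile 96.4), Slc25a44 (0.26) and Slc25a48 (0.24). For Slc25a25 the SD was 0.64 in WT and 0.13 in SIRT7 KO, and the difference in spread was not tested. Slc25a44, a carrier of branched-chain amino acids, read 8.75, 8.63, 9.18 and 8.72 in WT and 8.92, 9.04, 8.47 and 9.08 in SIRT7 KO (0.06 ± 0.16). Array 3 was the highest of the WT and the lowest of the SIRT7 KO arrays for this gene.

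Genes that work beside the carriers were counted in the same fit. Of 32 other genes of mitochondrial transport (pores, import machinery, ABC transporters, uncoupling proteins and pyruvate carriers), 0 rose and 2 fell, beside 2.17% and 2.48% of all genes, with a median difference of 0.02. At an unadjusted p under 0.05 were 1 that was higher and 4 that were lower, beside 15.6% of all genes in both directions together. Abcb10, an ABC transporter of the inner membrane with a part in heme synthesis, read 9.58, 9.44, 9.40 and 9.31 in WT and 9.05, 9.11, 9.01 and 9.03 in SIRT7 KO, and fell by 0.39 ± 0.07 (adjusted p = 0.0550). Its groups lay well apart, it kept its call in all 8 fits without 1 array, and a second probe set fell by 0.47 ± 0.09. The remaining probe set of Abcb10, at means of 4.77 in WT and 4.87 in SIRT7 KO, did not pass (0.09 ± 0.09, adjusted p = 0.698). Mtch1, a carrier-like protein of the outer membrane, fell by 0.38 ± 0.10 (8.35 in WT, 7.96 in SIRT7 KO, adjusted p = 0.127) and kept its call in 2 of these 8 fits.

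Of 46 enzymes that use or supply what the carriers move, 0 rose and 2 fell, beside the same shares of all genes, with a median difference of 0.04. An unadjusted p under 0.05 was reached by 3 that were higher and 5 that were lower, again beside 15.6% of all genes. Fech (ferrochelatase), which inserts iron into protoporphyrin as the last step of heme synthesis, read 11.70, 11.57, 11.68 and 11.61 in WT and 11.45, 11.33, 11.36 and 11.20 in SIRT7 KO (-0.30 ± 0.07, adjusted p = 0.0980). All SIRT7 KO arrays lay below all WT arrays, and the call was kept in 3 of the 8 fits without 1 array. A second probe set of Fech fell by 0.37 ± 0.07 (adjusted p = 0.0511), and 2 others did not pass (-0.12 and 0.16). Further enzymes of heme synthesis on this list did not pass and differed in sign. They were Alas1 (0.61 ± 0.54, adjusted p = 0.666), Cpox (0.17 ± 0.10, adjusted p = 0.468) and Ppox (-0.05 ± 0.12, adjusted p = 0.888). Asl (argininosuccinate lyase of the urea cycle) fell by 0.34 ± 0.08 (11.48 in WT, 11.14 in SIRT7 KO, adjusted p = 0.0994) and kept its call in 2 of the 8 fits. Fech and Asl lost their calls, and Abcb10 and Mtch1 kept theirs, with the replicate number as a block.

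The list for mitochondrial content held genes of the respiratory chain, mitochondrial DNA maintenance, mitochondrial shape and protein folding and turnover. It also held transcriptional regulators such as Ppargc1a and Esrra. The regulators are not themselves a measure of content, and all 27 genes measured were counted together. By limma 0 of them were called, beside 4.65% of all genes (2 at an unadjusted p under 0.05, both higher), 14 had a positive difference and the median was 0.03. Mean levels ran from 10.63 to 10.79 in WT and from 10.65 to 10.83 in SIRT7 KO, so that the groups overlapped. The 2 genes at an unadjusted p under 0.05 were Cycs (cytochrome c), with means of 12.68 and 13.02 (0.34 ± 0.11, adjusted p = 0.183), and Mfn2, which acts in mitochondrial fusion, with 9.50 and 9.73 (0.23 ± 0.07, adjusted p = 0.167) and no overlap between the groups.

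Markers of other cells of the liver were counted because whole tissue was used, and their part in the values of the carriers was not tested. Where a count is 0, it was also 0 at an unadjusted p under 0.05. Of the macrophage markers 0 of 8 were called (8 positive, mean level 8.83 to 9.79 in WT and 9.02 to 9.91 in SIRT7 KO), and of the cholangiocyte markers 0 of 4 (4.89 to 4.95 and 4.85 to 4.99). Of the endothelial markers 1 of 5 was called, Lyve1 (1.21 ± 0.21, adjusted p = 0.0463), with mean levels of 7.22 to 7.54 and 7.47 to 7.65. Only 2 of these 5 had a positive difference, and their median was -0.07. The stellate markers had 1 of 6 called higher, Dcn, with mean levels of 7.59 to 8.09 and 7.95 to 8.35. A positive difference was seen in 5 of these 6. At an unadjusted p under 0.05 were 2 that were higher, Dcn and Col1a1 (0.21 ± 0.09), and 1 that was lower, Reln (-0.20 ± 0.09). The T and B cell markers had 1 of 5 called lower, Cd3g, with mean levels of 5.01 to 5.19 and 4.80 to 4.96. The neutrophil markers had 0 of 4 called and spread widely in both groups (5.37 to 9.28 and 5.19 to 8.55). Of 4 adipose markers 1 was called, Cidec, a lipid droplet protein that hepatocytes also express (3.90 in WT, 5.89 in SIRT7 KO, adjusted p = 0.141), and the other 3 lay below the lower quartile. Of the calls among these markers, that of Lyve1 was kept in all 8 fits without 1 array, those of Dcn and Cd3g in 2 each and that of Cidec in 1, and with the replicate number as a block only Lyve1 kept its call.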

How the data were processed

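Liver RNA of 4 WT and 4 SIRT7 KO samples, taken as 1 mouse each, was hybridised to 1 Affymetrix array each. The deposited table holds log2 values that the authors had background corrected, normalized between arrays and summarised to 1 value per probe set. This step is RMA in the methods of the study but GCRMA in the submitters' processing notes, and the table does not show which was used. No version is given in the sources used here. Array medians ran from 6.31 to 6.37, and 8 arrays limit the precision.

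Of 22690 probe sets, 64 Affymetrix controls were left out. Probe sets were named from GEO's platform annotation, which can be old (20380 with 1 symbol, 691 with several and 1555 with none, the last 2 kinds tested but not named). The genotypes were compared in limma 3.58.1 under R 4.3.3 (lmFit and eBayes, two-sided, with no term besides genotype), with Benjamini-Hochberg adjustment over all 22626 probe sets and a threshold of 0.15. The model was tested on simulated data. Differences are SIRT7 KO minus WT with the standard error of the model. Promoters were taken from RefSeq (GRCm38.p6).

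All probe sets of a gene with a called probe set are given by array, as are the 6 further genes with the smallest p. Slc25a20 was added after its values were seen, and so were Fech and Abcb10 values by array. Up to 4 members per substrate group by smallest p, the called members of each list and the 4 genes with the largest SD are named, and the rest are summarised. Slc25a15 was named besides these, and Slc25a33 was named in place of Slc25a17, which had a smaller p. Alas2, Cycs, Mfn2, Hnf4a, Col1a1 and Reln were not called and are named for an unadjusted p under 0.05. Alas1, Cpox and Ppox, also not called, were added beside Fech. The members, the lists (other mitochondrial transport, enzymes beside the carriers, mitochondrial content, and markers of adipose tissue, cholangiocytes, endothelial cells, erythroid cells, hepatocytes, macrophages, muscle, neutrophils, stellate cells and T and B cells) and the tests were chosen with earlier results of these data known. Alternatives were a threshold of 0.05, eBayes with trend and robust variance, array weights, quantile normalization, median centring, a filter on dim probe sets, leaving out _s_at and _x_at probe sets, the mean of a gene's probe sets, the replicate number as a block, and leaving out each array. Carriers without a single-symbol probe set, such as Slc25a1 and Slc25a12, are not analysed here.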

Additional observations from a re-analysis of the deposited data

Results flagged for a closer look

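For 6 of 74 groups of 4 arrays (8.11%, 37 of the 65 probe sets of the carriers), a single array lay far from the other 3 by the ratio of its gap to the whole range of the group, which chance gives in about 1 of 20 groups. The other carrier probe sets were not checked in this way, so the share does not describe the whole family. With 37 probe sets for at most 33 genes, some genes were checked by more than 1 probe set, so the 74 groups are not all independent. For Slc25a3, WT array 2 read 12.43 and the other WT arrays 12.53 to 12.55 (ratio 0.886), and SIRT7 KO array 1 read 12.64 and the others 12.54 to 12.55 (ratio 0.901). For Slc25a4 (1424562_a_at), WT array 4 read 7.20 and the others 7.68 to 7.76 (ratio 0.854). For Slc25a28, WT array 1 read 8.42 and the others 8.24 to 8.26 (ratio 0.875). For Slc25a35, which lay below the lower quartile of all probe set means, WT array 3 read 4.60 and the others 4.32 to 4.35 (ratio 0.886). For Slc25a30 (1420835_at), SIRT7 KO array 3 read 9.52 and the others 8.74 to 8.81 (ratio 0.911). Without that array this probe set of Slc25a30 still passed the test, with a difference of 1.23 (adjusted p = 0.0646).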

How the results depend on the processing

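Slc25a30 was called in every alternative. The count of carrier genes called (2 as reported) was 1 at an adjusted p under 0.05, 1 after a further quantile normalization, 1 with the replicate block, 4 with the filter on dim probe sets (Slc25a23, Slc25a30, Slc25a37 and Slc25a38), 3 by gene means (with Slc25a5 added), and 4 without SIRT7 KO arrays 3 and 4 and WT array 4 (Slc25a10, Slc25a20, Slc25a30 and Slc25a47), a setting chosen after seeing the data. Leaving out 1 array gave 1 to 3 genes, 3 to 8 probe sets (6 as reported), and a median difference of 0.0446 to 0.1144 (0.0618 as reported, highest without WT array 3). At an adjusted p under 0.05, 2 carrier probe sets, 0 other transport genes and 0 enzymes were called. Leaving out 1 array gave 1 to 2 other transport genes and 0 to 2 enzymes (2 of each as reported), and 0 mitochondrial content genes. The replicate block gave 4 carrier probe sets, 2 other transport genes, 0 enzymes and 628 calls over all probe sets (975 as reported). Same-numbered arrays did not deviate together (correlations of 0.255, -0.252, -0.163 and 0.145), and not every array correlated best with its own number, so the numbers were not taken to pair the mice. No named difference changed sign. The named probe sets stayed on the same side of the threshold in 194 comparisons, lost their call in 27 and gained one in 8. These counts include the fit on gene means, where the mean of the gene stands for each of its named probe sets. The single mean of Slc25a30 is thus counted more than once. Fits without 1 array have fewer arrays and made 222 to 900 calls over all probe sets. The causes of the other changes were not tested.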
